A study of Oryza sativa with 6 samples.

Results

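The PR10 cluster of rice chromosome 12 was examined in root tips before and after aluminium (Al). Its members were the probe sets whose transcript assignment in the authors' deposited table named LOC_Os12g36830, LOC_Os12g36850, LOC_Os12g36860 or LOC_Os12g36880. That rule found 4 probe sets of 57258 on the Affymetrix Rice Genome array, 1 for each locus, and the annotation names 34896 loci in all. The loci were chosen for their place and family, with earlier results of these data known. An Affymetrix probe set is a group of short probes to a transcript, and its signal is the MAS5 summary of those probes.

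PR10 proteins are small intracellular proteins of the Bet v 1 family, named after the major birch pollen allergen. They were described as pathogenesis-related because they accumulate after infection, and members of the family bind hydrophobic ligands or show ribonuclease activity in vitro. In rice, RSOsPR10 (LOC_Os12g36830) is known as a root-specific member whose transcript responds to jasmonate, salt and drought, and PBZ1 (LOC_Os12g36880) is known as the transcript induced in leaves by the resistance inducer probenazole and by rice blast.

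The study held 2 groups of 3 arrays, all from root tips (0 to 1 cm) of Japonica rice with no transgene or mutation named in the labels. Seedlings of both groups floated on 0.5 mM CaCl2. The group after Al had received 50 µM Al in that CaCl2 solution, at pH 4.5 and for 6 h, from an age of 5 d. The group before Al had not yet received it. The labels give neither the pH before Al nor a group kept for 6 h without Al, so Al, pH and time in solution cannot be told apart. The labels name the 3 samples of a group biological repeats without saying whether they were separate cultures, so the spread behind each p-value may be technical.

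Between 24836 and 25492 probe sets were called present per array, and the 25283 with a present call on 3 or more of the 6 arrays were tested. Arrays of a group correlated at 0.987 across the tested probe sets, and arrays of different groups at 0.951 to 0.956. The number of arrays limits the precision. All 6 root markers were present on all 6 arrays, and RCc3, a root cortex transcript, stood at 14.32 ± 0.06 (log2 signal, SD, n = 3) before Al and 14.28 ± 0.10 after it. Among the root markers 0 rose and 2 fell. These were the auxin exporter OsPIN2 (LOC_Os06g44970), which fell by 0.35 ± 0.08 (log2 change, SE), and the radial patterning factor OsSCR1 (LOC_Os11g03110), which fell by 0.93 ± 0.20. The deposited annotation aligns the probe set of OsSCR1 to chromosome 12 and names its product DELLA protein GAIP-B. Which locus gave that signal is therefore uncertain. Of 5 green tissue loci on the array 3 were tested, of which 0 rose and 1, the Rubisco small subunit gene LOC_Os12g17600, fell by 0.68 on the log2 scale. It and a chlorophyll a/b-binding protein gene, LOC_Os11g13890, were present on all 6 arrays, while another such gene, LOC_Os01g41710, was absent on all 6. LOC_Os11g13890 and the Rubisco gene LOC_Os12g19470 had log2 changes of -0.26 and -0.05 and were not called. LOC_Os12g19381, also a Rubisco gene, was present on 1 array before Al and was not tested. All 5 loci were read on shared probe sets, so which gene gave each signal is uncertain. Tips are bulk tissue, so fewer cells of a type and less RNA per cell cannot be told apart.

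The 4 loci lie on the plus strand of chromosome 12 between 22547313 and 22567684, a stretch of 20.4 kb. These positions come from the alignments in the deposited table, with a genome build not given in the sources used here. LOC_Os12g36830 aligned at 22547313 to 22548379 and is described on the array as the root-specific RSOsPR10. LOC_Os12g36850 followed at 22558114 to 22559946 after 9734 bases and is annotated as a Bet v 1-D/H type allergen. LOC_Os12g36860, annotated as PR10 and described on the array as PR-10a, aligned at 22561907 to 22563333. LOC_Os12g36880 aligned at 22566483 to 22567684 and is described as the probenazole-inducible PBZ1. The spacing was uneven, since the last 3 loci were separated by only 1960 and 3149 bases.

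The table marks how far each probe set is specific. All 4 were assigned to 1 locus, and 11 probes matched the target transcript, or 10 for LOC_Os12g36850. Only the probe set of LOC_Os12g36860 was of the shared type, and 6 of its probes also matched another transcript. For LOC_Os12g36880, 2 other transcript models were listed, and at most 6 probes matched any 1 of them. A contribution of those models to its signal is therefore uncertain. The 7 probes of LOC_Os12g36850 with another match hit a second transcript of the same locus. For LOC_Os12g36830 the table lists no other match. The members are relatives, and their sequences were not compared here.

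After Al, the transcripts of 3 of the 4 loci were higher. RSOsPR10 went from not detected to detected, with a fold of the means of 6.12. LOC_Os12g36850 was 2.76-fold and PBZ1 2.26-fold higher. LOC_Os12g36860 was not detected on any array. The firmness of these calls differed between loci: the call for RSOsPR10 held in each of the 12 alternative settings run, whereas those for LOC_Os12g36850 and PBZ1 were lost in some of them. RSOsPR10 passed the presence filter through its arrays after Al alone, and every alternative except no filter kept that filter. With no filter its limma adjusted p was 8.16e-05.

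RSOsPR10 (LOC_Os12g36830) gave log2 signals of 6.85, 6.62 and 7.16 on the 3 arrays before Al and of 9.05, 9.42 and 9.99 on the 3 arrays after Al. On the linear scale these were 115, 98.5 and 143 before and 532, 686 and 1016 after. The groups lay far apart, since the lowest array after Al exceeded the highest before it by 1.90 on the log2 scale. Every array before Al carried an absent call and every array after Al a present call. The group means were 6.88 ± 0.27 and 9.49 ± 0.47 (log2 signal, SD, n = 3). The log2 change was 2.61 ± 0.23 (SE), with a 95% interval from 2.10 to 3.13 and a limma adjusted p of 2.21e-05. Because the transcript was not called present before Al, the fold of 6.12 is not exact. Its own signals before Al lay above the lowest signals called present, so those signals set no other limit. The value is the plain fold of the means and leaves out their spread. On the fold scale the 95% interval ran from 4.28 to 8.73. Only 0.961% of the tested probe sets had a larger rise.

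LOC_Os12g36850, a Bet v 1-D/H type PR10 gene, was present on all 6 arrays. Its log2 signals were 6.99, 6.08 and 6.79 before Al and 7.66, 7.51 and 9.09 after Al. The groups did not overlap, with a gap of 0.52, but the spread within them was wide: the array labelled repeat 2 was the lowest before Al and repeat 3 stood well above the others after Al. The means were 6.62 ± 0.48 and 8.09 ± 0.87 (log2 signal, SD, n = 3). The log2 change of 1.47 ± 0.40 (SE) had a 95% interval from 0.58 to 2.36 and a limma adjusted p of 0.0192. Only 1.28% of the tested probe sets had a larger SD after Al. The 95% interval of the rise ran from 1.49 to 5.12 on the fold scale.

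PBZ1 (LOC_Os12g36880) had 2 present calls before Al and 3 after it. Log2 signals of 5.06, 5.93 and 5.80 were measured before Al and of 6.53, 6.25 and 7.54 after Al, the first of these under an absent call. Again the groups did not overlap, by a gap of 0.32, and the array of repeat 3 was the highest after Al. The means were 5.60 ± 0.47 and 6.78 ± 0.68 (log2 signal, SD, n = 3), and the log2 change was 1.18 ± 0.37 (SE; 95% interval 0.36 to 2.00; limma adjusted p = 0.0356). On the fold scale the interval began at 1.28.

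LOC_Os12g36860 (PR-10a) carried absent calls on all 6 arrays and was not tested. Its log2 signals were 1.12, 0.91 and 2.03 before Al and 1.67, 0.28 and 0.57 after Al. The groups overlapped, and all values lay at or below the lowest log2 signals called present on the arrays, 2.07 to 2.98. With the presence filter removed its log2 change was -0.52 ± 0.62 (SE), with a 95% interval from -1.92 to 0.89 and a limma adjusted p of 0.726. A transcript of this locus was therefore not detectable by this probe set in either group, and no fold is given.

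**Figure D1:**
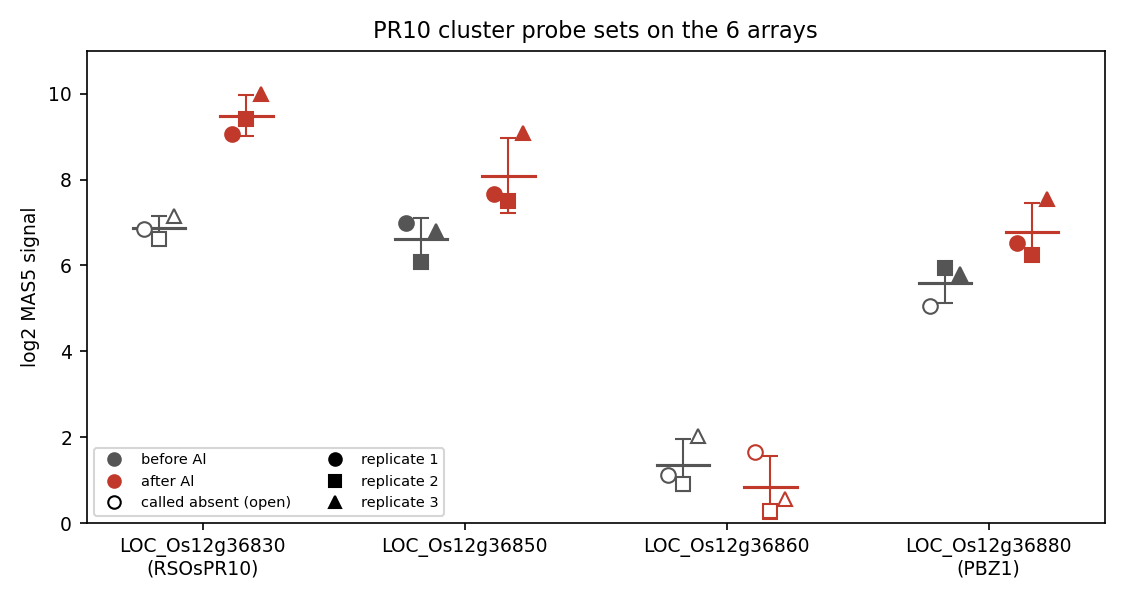
Log2 MAS5 signal of each PR10 cluster probe set on the 6 arrays, with 3 replicates before Al (grey) and 3 after Al (red). Horizontal lines are means, bars are SD, and open symbols are arrays with an absent call. LOC_Os12g36830, LOC_Os12g36850 and LOC_Os12g36880 do not overlap between groups, their replicate 3 after Al is the highest point, and LOC_Os12g36860 is absent throughout.

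Of the 3 member probe sets tested, 3 were called higher and 0 lower at a limma adjusted p below 0.05. Among all tested probe sets 30.2% were called in either direction and 14.3% were called higher. The 3 members without overlap between groups stand beside 19.6% of tested probe sets whose arrays after Al all exceeded all arrays before it. RSOsPR10 passed the presence filter through its arrays after Al alone, so the count of members that passed is a description. Over all tested probe sets the median log2 change was -0.04, close to no shift. By size of rise the members stood apart from most tested probe sets: 2.73% had a larger rise than LOC_Os12g36850 and 3.82% a larger rise than PBZ1.

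In all 3 risers the array of repeat 3 was the highest after Al. It exceeded the mean of the other two by 0.75 for RSOsPR10, by 1.5 for LOC_Os12g36850 and by 1.15 for PBZ1 on the log2 scale. Over all tested probe sets the median of this difference was 0.01, and it reached 1 for 1.54% of them. Array 3 was the highest after Al for 37.1% of tested probe sets. Without it, the log2 change of RSOsPR10 was 2.36 and that of LOC_Os12g36850 was 0.97 (limma adjusted p = 0.0302), while PBZ1 changed by 0.80 and missed the threshold (limma adjusted p = 0.108).

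For LOC_Os12g36850 the call was lost without the array of repeat 2 before Al (log2 change 1.20, limma adjusted p = 0.0639). PBZ1 lost it without repeat 1 before Al (0.91, adjusted p = 0.113), repeat 3 before Al (1.28, adjusted p = 0.0592) or repeat 1 after Al (1.30, adjusted p = 0.053). When the variance was modelled without an intensity trend, adjusted p rose to 0.0744 for LOC_Os12g36850 and to 0.0821 for PBZ1, and when all probe sets were tested PBZ1 reached 0.0987. In the authors' deposited table too RSOsPR10 had the lowest p of the 3, with unadjusted p-values of 0.00287 for RSOsPR10, 0.0805 for LOC_Os12g36850 and 0.0760 for PBZ1. In the authors' deposited table the ratios of linear signals were 6.27, 3.04 and 2.37 for these loci, and 0.721 for LOC_Os12g36860.

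**Figure D2:**
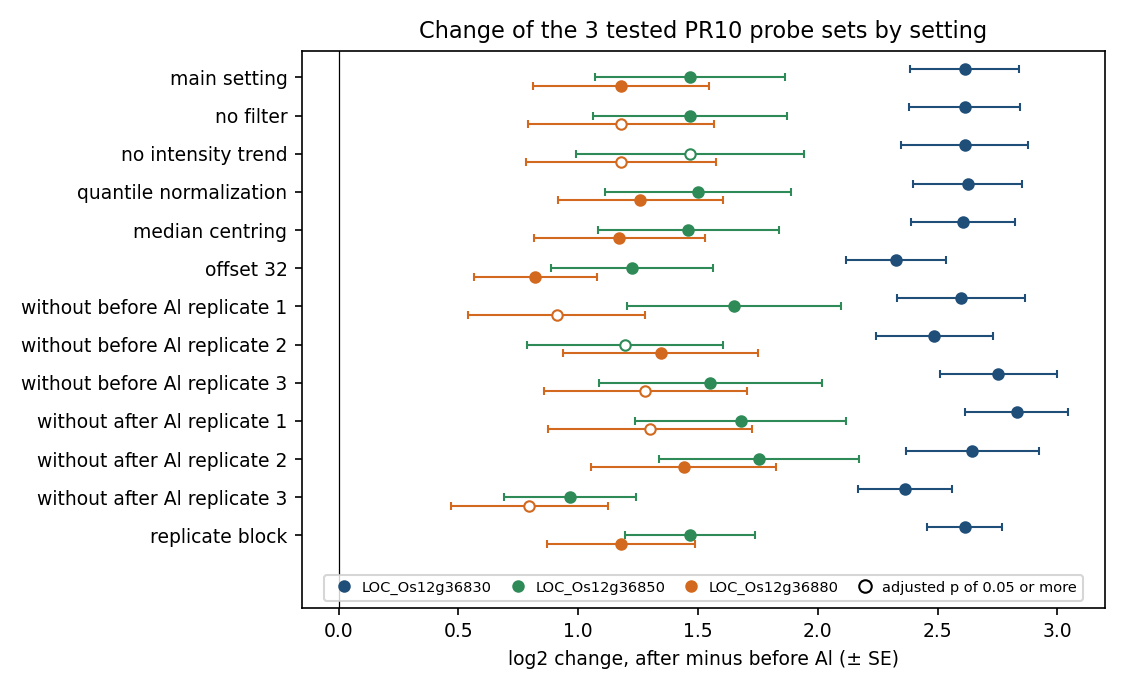
Log2 change (after minus before Al, ± SE) of the 3 tested PR10 probe sets in the main setting and the 12 alternatives. Filled points have a limma adjusted p below 0.05 and open points do not. LOC_Os12g36830 stays between 2.33 and 2.83 and filled throughout, while LOC_Os12g36850 and LOC_Os12g36880 carry open points in some settings and lie lowest without replicate 3 after Al.

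Whether the loci rose by unequal amounts was asked within arrays, by the difference of log2 signals of 2 probe sets. That difference has no meaning as a level, and only its shift between groups was read. Between RSOsPR10 and LOC_Os12g36850 it went from 0.26 ± 0.36 before Al to 1.40 ± 0.51 after it (SD, n = 3; shift 1.15), with no overlap of arrays. Between RSOsPR10 and PBZ1 it went from 1.28 ± 0.55 to 2.71 ± 0.40 (shift 1.43), also with no overlap. RSOsPR10 carried absent calls on all arrays before Al and PBZ1 on 1 of them, so the shifts that involve RSOsPR10 rest on signals of a probe set not detected there and are not exact. Between LOC_Os12g36850 and PBZ1 it was 1.02 ± 0.89 and 1.31 ± 0.21 (shift 0.29), and the arrays overlapped. Without the array of repeat 2 before Al that last shift was -0.15. The exact permutation test, two-sided over the 3 pairs, gave p = 0.1, 0.1 and 0.7, and 0.15, 0.15 and 0.7 after Benjamini-Hochberg adjustment. With 3 arrays against 3 the smallest p is 0.1, so the design cannot place these differences below 0.05, nor do these p-values show that the loci rose alike.

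Genes around the cluster were read from the deposited annotation. LOC_Os12g36840 lies between RSOsPR10 and LOC_Os12g36850 and is also annotated as PR10, although it was not among the chosen loci. Both of its probe sets were absent on all 6 arrays. LOC_Os12g36870, an alkaline alpha galactosidase gene between LOC_Os12g36860 and PBZ1, had 0 present calls before Al and 2 after Al and was not tested. The rises in the stretch were thus interleaved with loci that were not detected or too rarely detected to test.

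Of 18 neighbouring loci on the array 11 were tested, of which 3 were higher and 1 lower. Among all genes tested, 16.1% were called higher and 17.8% lower. The polygalacturonase gene LOC_Os12g36810, upstream of RSOsPR10, encodes an enzyme type that cuts pectin. Its log2 signals were 11.06, 11.04 and 11.25 before Al and 9.82, 9.95 and 9.93 after Al, and it fell by 1.22 ± 0.08 (log2 change, SE; limma adjusted p = 3.07e-06). The nearest neighbour with a transcript on all arrays on that side thus moved opposite to the 3 risers of the cluster. Farther upstream, a triacylglycerol lipase gene, LOC_Os12g36770, rose by 0.76 ± 0.08 (log2 change, SE) on a shared probe set.

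Downstream of PBZ1, the calmodulin-binding protein gene LOC_Os12g36910 rose by 1.20 ± 0.17 (log2 change, SE; limma adjusted p = 0.000431), from 7.74, 7.48 and 7.71 before Al to 8.49, 8.94 and 9.11 after Al. LOC_Os12g36900, annotated as fiber protein Fb2, rose by 0.28 ± 0.09 with a limma adjusted p of 0.0339. That call was lost in several alternatives, and its other probe set was not called. The other 7 tested neighbours had log2 changes from -0.32 to 0.12 and were not called. They include the cellulose synthase-like gene CSLD4 (LOC_Os12g36890), next to PBZ1, at -0.13 ± 0.15. The median over the 11 tested neighbours was -0.05, against -0.04 over all genes tested.

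**Figure D3:**
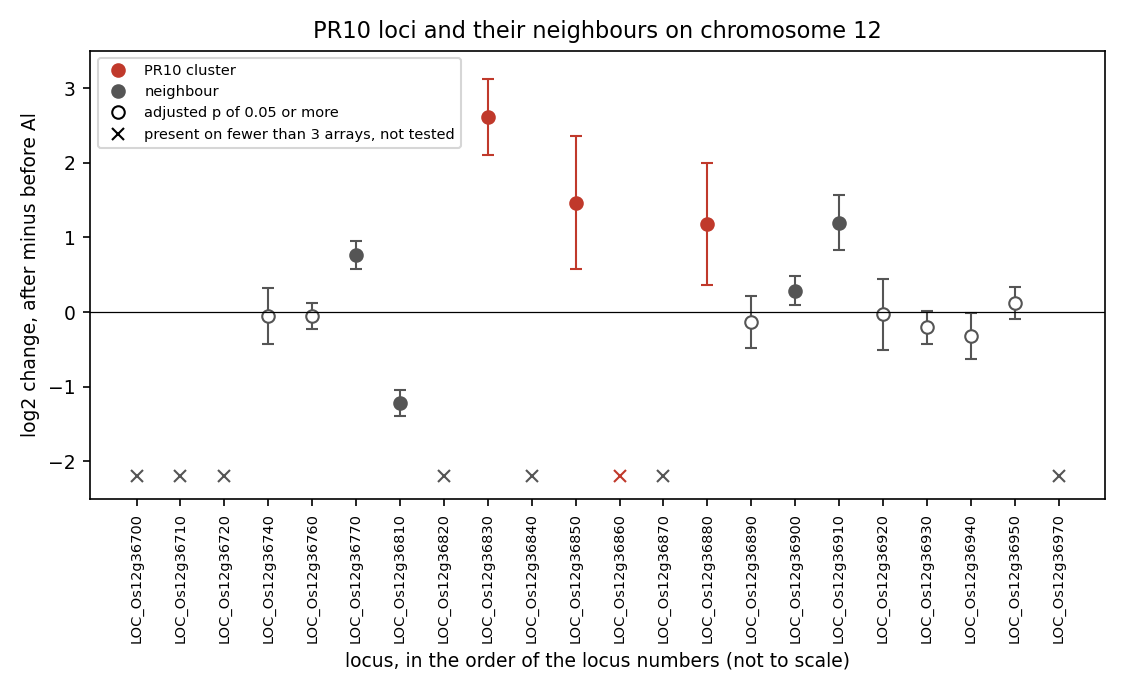
Log2 change (after minus before Al, with 95% interval) of the PR10 cluster (red) and its neighbours (grey) on chromosome 12, in locus order and not to scale. Open points were not called, and crosses at the bottom mark loci present on fewer than 3 arrays, which have no change plotted. The 3 tested PR10 loci have estimates above 1, with intervals that reach below 1 for LOC_Os12g36850 and LOC_Os12g36880. Their tested neighbours lie between -1.22 and 1.20, and LOC_Os12g36910 (1.20) lies level with LOC_Os12g36880 (1.18).

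PR10 and Bet v 1 type genes elsewhere in the genome were compared next. JIOsPR10 (LOC_Os03g18850), the jasmonate-inducible PR10 of chromosome 3, gave log2 signals of 11.34, 11.15 and 11.42 before Al and of 13.24, 13.26 and 13.43 after Al. The groups were well apart and tight within themselves. It rose by 2.00 ± 0.08 (log2 change, SE), or 4.01-fold, with a limma adjusted p of 1.57e-07. The deposited annotation calls it pathogenesis-related protein 1, and the name JIOsPR10 comes from prior knowledge.

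Of the 5 loci listed as of this kind outside the cluster, 2 were tested, 1 higher and 1 lower. The lower one was LOC_Os06g36670, annotated as a cyclase/dehydrase family protein, which fell by 0.96 ± 0.13 on a shared probe set. Its other probe set, not of the shared type, fell by 1.30 ± 0.20 (log2 change, SE). LOC_Os04g39150, LOC_Os08g28670 and LOC_Os04g50710 were absent on all 6 arrays. The rise was therefore seen at RSOsPR10, LOC_Os12g36850, PBZ1 and JIOsPR10. The locus that fell is not annotated as PR10, so its fall is not read as a PR10 result. For the loci absent on all arrays, a rise could not be tested.

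Other families named as pathogenesis-related moved in both directions, beside 16.1% of all tested genes called higher and 17.8% called lower. Of 9 tested thaumatin-like (PR5) loci among 28 on the array, 2 rose and 2 fell, with a median log2 change of -0.15. LOC_Os10g05660 rose by 0.76 ± 0.11 and LOC_Os03g14050 by 0.58 ± 0.08, and LOC_Os06g47600 fell by 0.54 ± 0.06. The other call, LOC_Os12g38120, fell by 0.20 ± 0.06 and was named after its values were seen. The PR5 list reached no rise of 2-fold.

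Of 3 tested PR4 loci, 1 rose and 2 fell. The wound-induced win2 type genes LOC_Os11g37960 and LOC_Os11g37950 fell by 1.45 ± 0.18 and by 0.71 ± 0.15 on the log2 scale. The riser, LOC_Os01g04050 at 0.65 ± 0.05, is a Bowman-Birk type inhibitor that the word search for wound-induced proteins took in, so none of the tested win genes rose. None of the 4 loci found as PR1 was present often enough to test. OsPR1a (LOC_Os07g03710), looked up after the other values were seen, had a log2 change of -0.32 ± 0.19 (SE; limma adjusted p = 0.24) with overlapping groups, and OsPR1b (LOC_Os01g28450) was absent on all 6 arrays.

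Genes of the hormone pathways known to act on PR10 transcripts were read as a list. Of 13 tested jasmonate and salicylate genes, 10 rose and 2 fell, and 5 of the risers reached 2-fold. Over all tested genes 16.1% were called higher and 17.8% lower. RERJ1, counted among the risers and the 2-fold risers, passed the presence filter through its arrays after Al alone. The median log2 change was 0.82, against -0.04 over all genes tested. The list was chosen with earlier results of these data known, so its direction is a description.

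Among synthesis enzymes of jasmonate, the allene oxide synthase OsAOS1 (LOC_Os03g55800) rose by 1.97 ± 0.10 (log2 change, SE). The later enzymes moved less, with the cyclase OsAOC (LOC_Os03g32314) up by 0.36 ± 0.05 and the reductase OsOPR7 (LOC_Os08g35740) up by 0.61 ± 0.05. OsJAR1 (LOC_Os05g50890), which joins jasmonate to isoleucine to make the active hormone, rose by 0.88 ± 0.12. For the receptor, OsCOI1a (LOC_Os01g63420) fell by 0.30 ± 0.06 and OsCOI1b (LOC_Os05g37690) fell by 0.21 ± 0.07, a call lost in 7 of 12 alternatives, while OsCOI2 (LOC_Os03g15880) was not called at 0.05 ± 0.09.

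Among response genes the changes were wider. RERJ1 (LOC_Os04g23550), a jasmonate-responsive bHLH factor, was absent before Al, with log2 signals of 5.17, 4.28 and 5.30. It was present after Al at 8.98, 8.46 and 8.90. The fold of the means was 14.6, with a 95% interval from 9.38 to 22.57. Because RERJ1 was not called present before Al, that fold is not exact. The repressor OsJAZ8 (LOC_Os09g26780) rose by 2.82 ± 0.09 (log2 change, SE) and the transcription factor OsMYC2 (LOC_Os10g42430) by 0.76 ± 0.13. On the salicylate side, the co-activator OsNPR1 (LOC_Os01g09800) rose by 0.82 ± 0.17 and OsWRKY45 (LOC_Os05g25770), a factor of probenazole-type resistance, by 1.59 ± 0.11. OsWRKY53 (LOC_Os05g27730), a defence-related WRKY factor, rose by 1.17 ± 0.07. For OsAOS2 and OsWRKY76 presence calls were too few to test.

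Salt and drought response genes gave a mixed picture. Of 7 tested, 3 rose and 0 fell in the limma test, 2 of them by at least 2-fold, beside 16.1% of all tested genes called higher and 17.8% called lower. The median log2 change was 0.21. SalT (LOC_Os01g24710), a mannose-binding lectin induced by salt, rose by 1.59 ± 0.21 on a shared probe set. The NAC factors SNAC1 (LOC_Os03g60080) and OsNAC6 (LOC_Os01g66120) rose by 1.70 ± 0.20 and 0.98 ± 0.18. The dehydrin RAB16A (LOC_Os11g26790) had a log2 change of -1.45 ± 0.64 and was not called, with a wide spread before Al, up to 8.17. OsLEA3 (LOC_Os05g46480), OsP5CS1 (LOC_Os05g38150) and OsDREB2A (LOC_Os01g07120) had log2 changes of 0.06, 0.02 and 0.21 and were not called.

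**Figure D4:**
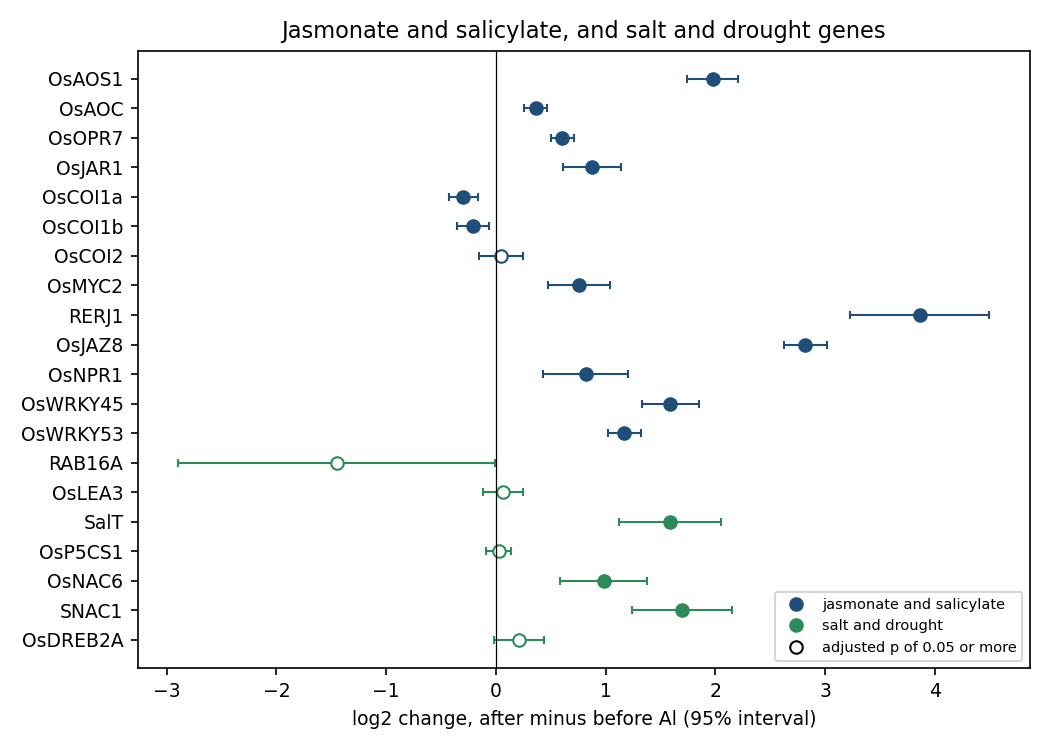
Log2 change (after minus before Al, with 95% interval) of the 13 tested jasmonate and salicylate genes (blue) and the 7 tested salt and drought genes (green). Open points were not called at a limma adjusted p below 0.05. RERJ1, OsJAZ8 and OsAOS1 lie farthest to the right, and RAB16A has the widest interval.

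The genes whose signals ran most like each riser were found by the root mean square difference of centred log2 signals over the 6 arrays. This is a description of likeness over both groups, chosen from the values themselves. Nearest to RSOsPR10 were the Bowman-Birk bran trypsin inhibitor LOC_Os01g03330 (difference 0.163), the MAP kinase kinase kinase LOC_Os01g50420 (0.166) and the NAC factor LOC_Os07g12340 (0.176). They had log2 changes of 2.67, 2.65 and 2.86, near the 2.61 of RSOsPR10.

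For LOC_Os12g36850 the nearest genes were less close. They were the deoxyxylulose phosphate synthase gene LOC_Os07g09190 (difference 0.253), the NBS-LRR type resistance gene LOC_Os12g17430 (0.264) and the Bowman-Birk type gene LOC_Os01g03390 (0.279). Each stood highest on the array of repeat 3 after Al, at 8.36, 7.32 and 8.66 (log2 signal). For PBZ1 they were LOC_Os01g74040, annotated as RHC2A (0.190), LOC_Os11g29780 (0.234) and the lipid phosphate phosphatase gene LOC_Os01g49820 (0.236), with log2 changes of 1.48, 1.32 and 1.00. These too were highest on that array, at 8.18, 10.18 and 9.62. Since these genes were picked for likeness over the same 6 arrays, their high array 3 follows from the choice. The genes nearest to LOC_Os12g36850 had log2 changes of 1.44, 1.19 and 1.37. Of them LOC_Os01g03390 was not called (limma adjusted p = 0.0598), and LOC_Os12g17430 lost its call in some alternatives. LOC_Os01g49820 was read on a shared probe set and also lost its call in some alternatives.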

How the data were processed

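Signals of 6 arrays were read from 2 deposited tables holding the same log2 values (largest difference 0.0). MAS5 made the signals, per the submitters' processing notes, with a version not given in the sources used here. Per the file headers, a table also holds detection calls, a p-value and a fold change (a ratio), which the authors computed and which are used only where credited. Linear trimmed means were nearly equal, 496.9 to 497.1 per array.

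Probe sets with a present call on 3 or more of 6 arrays were tested with limma 3.58.1 in R 4.3.3 (lmFit, eBayes with an intensity trend), two-sided, with Benjamini-Hochberg adjustment over all 25283 and a threshold of 0.05. The fit had 4 residual degrees of freedom, and 9.47 after sharing the spread. Genes were represented by their probe set of highest mean signal. Of all probe sets, 43020 named 1 locus, 1371 several and 12867 none. The code was tested on simulated data.

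Alternatives were no filter, no intensity trend, quantile normalization, median centring, an offset of 32, each replicate left out, and a replicate block. Members and lists were chosen with earlier results of these data known. Named genes were the members, the 3 genes most like each called member, passing jasmonate, salicylate, salt and drought genes, the PR10 genes elsewhere, every measured neighbour, and up to 3 passing genes of each other family. Root and green tissue markers were also followed. Gene symbols come from the array's descriptions or prior knowledge. Member sequences were not used here.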

Additional observations from a re-analysis of the deposited data

How the results depend on the processing

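None of the called changes of members and named genes reversed in the 12 alternatives. The shift between LOC_Os12g36850 and LOC_Os12g36880, which was not past the threshold, ran from -0.15 to 0.74 with arrays left out. Across the arrays left out in turn, the log2 change ran from 2.36 to 2.83 for LOC_Os12g36830, from 0.97 to 1.76 for LOC_Os12g36850 and from 0.80 to 1.44 for LOC_Os12g36880. Without the intensity trend, the number of cluster probe sets called higher was 1, since LOC_Os12g36850 (1.47) and LOC_Os12g36880 (1.18) missed the threshold at unchanged log2 changes, and LOC_Os12g36880 (1.18) also missed it with no filter. The replicate block left the calls of the 3 tested members in place (limma adjusted p = 0.0031 for LOC_Os12g36850 and 0.0179 for LOC_Os12g36880). Same-numbered arrays deviated together at correlations of 0.0011 to 0.087, and different-numbered arrays at -0.092 to 0.021. All were small, so the numbers were not taken as pairs in the main setting. The array names after Al carry other numbers than the repeats, so the block rests on the repeat labels alone. PR5 and hormone genes called lower numbered 1 each with no filter or no intensity trend, and 1 to 3 (PR5) and 1 to 2 (hormone genes) with arrays left out. Salt and drought genes called lower numbered 1 with the replicate block and 0 to 1 with arrays left out, and neighbours called lower numbered 2 with no intensity trend and 1 to 2 with arrays left out. Of 53 other genes followed, markers included, 38 were called. Of these 4 lost the call in an alternative, and 4 others gained one. The cause was not tested.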
